A study of Homo sapiens with 18 samples.

Results

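Toll-like receptors are membrane receptors of innate immunity, and 9 genes of this system were examined in 3 acute myeloid leukaemia lines after knockdown of BCAT1. The genes were 6 receptors (TLR1, TLR2, TLR4, TLR6, TLR7 and TLR8), the lipopolysaccharide co-receptors CD14 and LY96, and the adaptor MYD88. They were chosen by symbol, 9 of the 20046 genes that the platform's annotation named, and each was read at its probe with the highest mean intensity over all 18 arrays. The lines, all human and established, were HL-60, SKM1 and MOLM13. In each line, a lentivirus delivered the hairpin shBCAT1-3 against BCAT1 or the non-targeting hairpin shNT, so the control cells had been transduced too. Transduced cells were sorted 48 h later, and RNA of 3 samples per group was hybridised to 1-colour Illumina arrays. HL-60 had been cultured in 10% serum and SKM1 and MOLM13 in 20%, so HL-60 and its serum level cannot be told apart. A single hairpin was used against BCAT1, and nothing in the labels says whether the 3 samples of a group came from separate cultures, so the p-values measure only the spread between these samples, which may be technical. BCAT1 is the cytosolic enzyme that transfers the amino group of branched-chain amino acids to alpha-ketoglutarate.

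TLR4 recognises bacterial lipopolysaccharide in a complex with LY96 (the protein MD-2), which binds the lipid, and CD14 loads lipopolysaccharide onto that complex. TLR2 recognises lipopeptides as a heterodimer with TLR1 or TLR6, and TLR7 and TLR8 sense single-stranded RNA in endosomes. All of these receptors can signal through the adaptor MYD88, which recruits IRAK kinases and leads to NF-kB activation, and monocytes and their leukaemic counterparts are known for expressing much of this system.

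The array medians lay between 91.0 and 93.1 intensity units, and arrays of a group correlated with r between 0.990 and 0.997 across genes. Precision is limited by having 3 arrays a group. BCAT1 intensity fell in every line with shBCAT1, by factors of 10.2 (HL-60), 9.62 (SKM1) and 6.84 (MOLM13) (limma adjusted p = 2.58e-18, 4.4e-18 and 1.71e-16). All 6 markers of myeloid lines that were on the array (PTPRC, SPI1, CEBPA, MPO, LYZ and CSF3R) had means above the median of all probe values, 92.1, in each of the 6 groups. PTPRC was close to it, with group means from 93.8 to 133. With shBCAT1, 3 of these markers rose in HL-60 (LYZ, SPI1 and CSF3R), LYZ most, 2.91-fold (limma adjusted p = 2.5e-07). In SKM1 PTPRC rose, in MOLM13 CSF3R rose, and 1 marker fell in both of these lines. The fall was that of MPO, 4.70-fold in SKM1 and 1.90-fold in MOLM13 (limma adjusted p = 7.9e-14 and 1.67e-07). Of all tested genes, 18.9% (HL-60), 11.2% (SKM1) and 21.0% (MOLM13) were called in either direction. The median of all probe values served as the limit below which a gene was too dim to test, and 15291 genes had at least 1 group mean above it. The smallest value was 60.4 and the handling of background is not given in the sources used here. Any background left in them would make folds at low intensity too small.

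Of the 9 genes, TLR4, TLR6, TLR8, CD14, LY96 and MYD88 passed this limit. TLR1, TLR2 and TLR7 did not. A gene passed if its brightest group alone exceeded the limit, so counts over these 6 do not stand for all 9. The 3 dim genes had group means of 79.1 to 84.1 (TLR1), 78.9 to 85.5 (TLR2) and 78.2 to 84.6 (TLR7). No array exceeded 92.1 for TLR1, and a single array did so for TLR2 and for TLR7. TLR1 was higher on every shBCAT1 array than on every shNT array in HL-60 and MOLM13, by 0.09 and 0.05 on the log2 scale. In a fit over all probes neither was called (limma adjusted p = 0.575 and 0.812). TLR2 with shNT was higher on every MOLM13 array than on any HL-60 or SKM1 array. The other such groups of these 3 genes overlapped, and at these intensities no order of lines or hairpins was drawn.

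The promoters of TLR4 and MYD88 are shown as the sequence upstream of the receptor and the adaptor whose intensity rose with shBCAT1 in MOLM13. The sequences are the 250 bases before the annotated start, from RefSeq (build GRCh38.p14), both on the + strand, written 5′ to 3′. Capitals mark matches to the motifs that follow.
TLR4, chr9:117704153-117704402: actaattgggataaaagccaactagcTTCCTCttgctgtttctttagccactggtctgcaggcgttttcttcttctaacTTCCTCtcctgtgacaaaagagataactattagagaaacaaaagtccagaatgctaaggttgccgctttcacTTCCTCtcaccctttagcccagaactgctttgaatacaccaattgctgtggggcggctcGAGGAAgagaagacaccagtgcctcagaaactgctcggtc
MYD88, chr3:38138411-38138660: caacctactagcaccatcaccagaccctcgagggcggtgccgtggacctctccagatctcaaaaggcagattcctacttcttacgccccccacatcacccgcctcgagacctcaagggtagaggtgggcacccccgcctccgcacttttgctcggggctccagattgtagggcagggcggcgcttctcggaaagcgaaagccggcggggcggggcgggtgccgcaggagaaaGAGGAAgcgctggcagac
TLR4 lies on chromosome 9 at 117704403 to 117724735 and MYD88 on chromosome 3 at 38138661 to 38143022. The motifs, chosen after the array values were known, were GAGGAA (the core bound by PU.1, a factor encoded by SPI1), TGANTCA (AP-1) and TTGCNNAA (C/EBP). Both strands were searched over 300 bases, 250 before to 50 after the start, in 35116 promoters. TLR4 held 4 matches to GAGGAA, starting 224, 171 and 99 bases upstream on the minus strand and 40 bases upstream on the plus strand. Of all promoters, 27.9% held at least 1 such match and 0.0911% held 4 or more. The limit of 4 was the count of TLR4 itself, so the last share is no test of TLR4. MYD88 held 1 match to GAGGAA, 18 bases upstream on the plus strand. Neither held a match to the other motifs, which were in 7.71% (AP-1) and 10.5% (C/EBP) of promoters. Among the members, promoter matches were read for 6, and none were read for TLR1, TLR7 and LY96. TLR6 and CD14 each held 1 match to GAGGAA, CD14 also 1 to TGANTCA, TLR8 1 to TTGCNNAA, and TLR2 none. A match describes the letters and is not a binding site. SPI1 itself had a log2 difference of 0.61 in HL-60 (adjusted p = 0.000149), -0.09 in SKM1 (adjusted p = 0.756) and -0.10 in MOLM13 (adjusted p = 0.588) by limma.

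With the control hairpin, SKM1 stood highest for TLR4, LY96, MYD88 and TLR8 and lowest for CD14. The adaptor MYD88 read 359, 364 and 369 in SKM1, 263, 213 and 228 in MOLM13, and 176, 156 and 170 in HL-60. The 3 groups did not overlap, and the order was SKM1, MOLM13, HL-60. SKM1 exceeded HL-60 2.18-fold (log2 difference 1.12, SE 0.09; limma adjusted p = 1.83e-10) and MOLM13 exceeded HL-60 1.40-fold (adjusted p = 8.43e-05). MOLM13 lay below SKM1 by a log2 difference of -0.64 (adjusted p = 2.08e-06).

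The receptor TLR4 read 180, 177 and 178 in SKM1, 138, 132 and 141 in MOLM13, and 131, 125 and 120 in HL-60. SKM1 was above both other lines with no overlap. Its log2 difference from HL-60 was 0.51 (SE 0.07; limma adjusted p = 1e-06). MOLM13 and HL-60 lay close together, and the test found no difference beyond their spread (log2 difference 0.13, 95% interval -0.01 to 0.28; limma adjusted p = 0.135).

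For LY96, the intensities with shNT were 209, 239 and 245 in SKM1, 156, 159 and 172 in HL-60, and 152, 124 and 134 in MOLM13. The order here was SKM1, HL-60, MOLM13, without overlap. SKM1 exceeded HL-60 by 0.51 on the log2 scale (limma adjusted p = 7.45e-05), while MOLM13 lay below HL-60 by a log2 difference of -0.25 (adjusted p = 0.0336). The last call ended without HL-60 shNT replicate 2 or 3 or MOLM13 shNT replicate 2 or 3, with differences between -0.33 and -0.18 over all left-out arrays.

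TLR8 read 163, 154 and 153 in SKM1, against 85.5, 127 and 90.6 in HL-60 and 84.7, 90.7 and 90.3 in MOLM13. All SKM1 arrays, 1 HL-60 array and no MOLM13 array exceeded the table median. The log2 difference was 0.66 for SKM1 minus HL-60 (limma adjusted p = 2.36e-05) and -0.82 for MOLM13 minus SKM1 (adjusted p = 1.05e-06). With the dimmer groups at or near the table median, the sizes of these differences are uncertain. Their direction is the firmer result at this probe, though a dimmer TLR8 probe read higher in HL-60 than in SKM1. Both differences were called in 26 of 26 alternatives, at 0.29 to 0.83 and -1.01 to -0.37. CD14 read 81.7, 82.2 and 83.5 in SKM1, below 88.8, 104 and 115 in HL-60 and 107, 94.6 and 108 in MOLM13. The SKM1 arrays did not overlap with either other line, but all values were near the table median, and the call against HL-60 (log2 difference -0.31, limma adjusted p = 0.0197) was lost without HL-60 shNT replicate 2 or 3 or SKM1 shNT replicate 1. The call of MOLM13 over SKM1 (0.32, adjusted p = 0.0149) was lost without MOLM13 shNT replicate 3. With the mean of both CD14 probes these differences were -0.17 and 0.20, and neither was called (limma adjusted p = 0.127 and 0.0688). For TLR6, which pairs with TLR2, no line difference was called, with log2 differences for SKM1 minus HL-60, MOLM13 minus HL-60 and MOLM13 minus SKM1 of 0.14, 0.12 and -0.02 (limma adjusted p = 0.188, 0.269 and 0.896). With the mean of both TLR6 probes, MOLM13 minus HL-60 was called at 0.18 (adjusted p = 0.0445).

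In counts, 5 of the 6 tested genes differed between SKM1 and HL-60 (4 higher and 1 lower in SKM1) where 48.6% of all tested genes did. Between MOLM13 and HL-60, 2 did (1 in each direction) against 44.2%. Between MOLM13 and SKM1, 5 did (1 higher and 4 lower in MOLM13) against 47.6%. The arrays of the line groups did not overlap for 5 of the 6 between SKM1 and HL-60, where 55.8% of all tested genes did not, for 3 between MOLM13 and HL-60 (48.6%) and for 5 between MOLM13 and SKM1 (55.1%).

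**Figure D1:**
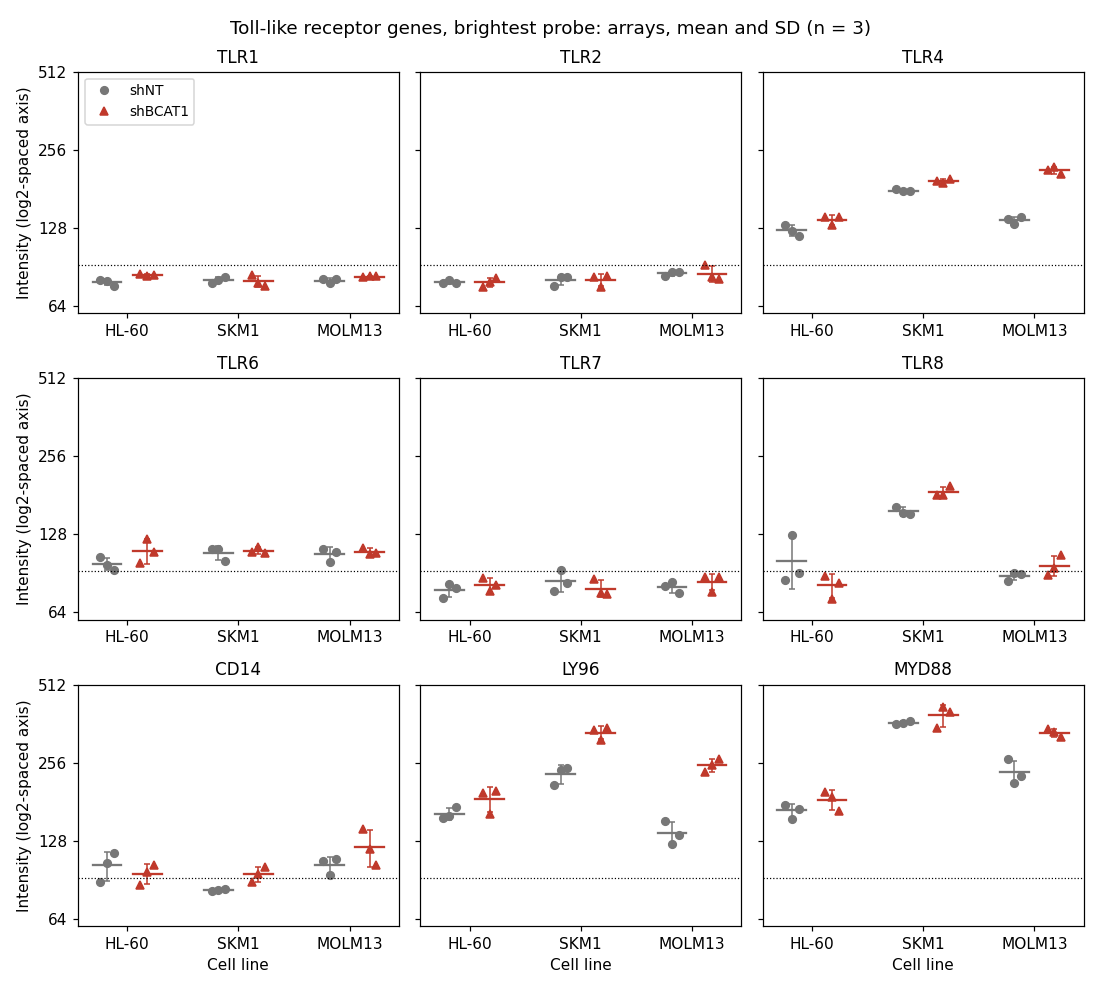
Intensity of the 9 genes on each of the 18 arrays, by line and hairpin, at the probe with the highest mean; the intensity axis is log2-spaced, points are arrays, horizontal and vertical bars are the group mean and SD (n = 3), and the dotted line is the median of all probe values (92.1). TLR4, LY96 and MYD88 lie above that line in every group, while the group means of TLR1, TLR2 and TLR7 lie below it.

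With shBCAT1, 3 of the 6 tested genes rose in MOLM13, namely the receptor TLR4, its co-receptor LY96 and the adaptor MYD88. The other co-receptor, CD14, was not called there (limma adjusted p = 0.171). In SKM1, LY96 alone rose, and in HL-60 none of the 6 tested genes passed the test. In MOLM13 LY96 increased most, 1.83-fold, followed by TLR4 at 1.56-fold and MYD88 at 1.42-fold. These are bulk samples, in which fewer cells of a type and less RNA per cell cannot be told apart. Each line's comparison uses its own control arrays.

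LY96, the lipid-binding partner of TLR4, read 152, 124 and 134 in MOLM13 with shNT and 235, 250 and 264 with shBCAT1. Every shBCAT1 array was above every shNT array, with means of 137 ± 14.3 and 250 ± 14.8 (SD, n = 3 each). The log2 difference was 0.87 (SE 0.09, 95% interval 0.67 to 1.07; limma adjusted p = 3.38e-07). In SKM1 the values were 209, 239 and 245 with shNT and 342, 312 and 347 with shBCAT1. These groups did not overlap either, and the log2 difference was 0.53 (SE 0.09, 95% interval 0.34 to 0.73; limma adjusted p = 0.000329), a 1.45-fold rise. In HL-60 the values were 156, 159 and 172 with shNT and 196, 162 and 199 with shBCAT1, which overlapped. The difference there was 0.19 (95% interval -0.01 to 0.38; limma adjusted p = 0.197).

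TLR4 read 138, 132 and 141 in MOLM13 with shNT and 214, 219 and 206 with shBCAT1. The shBCAT1 arrays lay well above, with means of 137 ± 4.5 and 213 ± 6.7 (SD, n = 3 each) and a log2 difference of 0.64 (SE 0.07, 95% interval 0.49 to 0.78; limma adjusted p = 3.6e-07). In SKM1 the values were 180, 177 and 178 with shNT and 195, 191 and 197 with shBCAT1. All 3 were higher with shBCAT1, but the difference of 0.12 did not pass the test (95% interval -0.02 to 0.27; limma adjusted p = 0.341). In HL-60 they were 131, 125 and 120 against 142, 131 and 141, which touched at 131, with a difference of 0.14 (95% interval -0.0037 to 0.28; limma adjusted p = 0.188).

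MYD88 read 263, 213 and 228 in MOLM13 with shNT and 343, 334 and 322 with shBCAT1. The groups did not overlap, with means of 235 ± 25.9 and 333 ± 10.7 (SD, n = 3 each) and a log2 difference of 0.51 (SE 0.09, 95% interval 0.32 to 0.70; limma adjusted p = 0.000179). In SKM1 the values were 359, 364 and 369 against 348, 421 and 401, and in HL-60 176, 156 and 170 against 198, 188 and 167. Both pairs overlapped, and the differences of 0.10 in SKM1 (95% interval -0.09 to 0.28; limma adjusted p = 0.664) and 0.14 in HL-60 (95% interval -0.05 to 0.33; limma adjusted p = 0.348) did not pass the test.

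In MOLM13, then, 3 of 6 tested genes rose and none fell, where 10.3% of all tested genes rose. In SKM1, 1 of 6 rose, where 4.67% of all tested genes did. With the SKM1 arrays fitted alone, TLR8 and CD14 passed as well (limma adjusted p = 0.0116 and 0.0473), and TLR8 did with array weights (adjusted p = 0.0185). Every shBCAT1 array lay above every shNT array for those 3 genes in MOLM13, where this held for 15.5% of all tested genes, and for 4 genes in SKM1 (TLR4, LY96, TLR8 and CD14), where it held for 15.9%. In HL-60, 0 of 6 were called by limma, where 18.9% of all tested genes were, and 1 of the 6, TLR8, had an unadjusted p under 0.05. Without HL-60 shBCAT1 replicate 2, LY96 passed there at 0.28 (limma adjusted p = 0.0498). The median log2 difference of the 6 genes was 0.36 in MOLM13, 0.16 in SKM1 and 0.14 in HL-60, beside medians over all tested genes of 0.0015, -0.0033 and 0.0012. Averaged over the 3 lines, TLR4, LY96 and MYD88 rose, by 0.30, 0.53 and 0.25 (limma adjusted p = 3.1e-06, 6.6e-08 and 0.000734), where 13.9% of all tested genes rose. The mean of both TLR6 probes was called as well, at 0.12 (adjusted p = 0.0323).

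**Figure D2:**
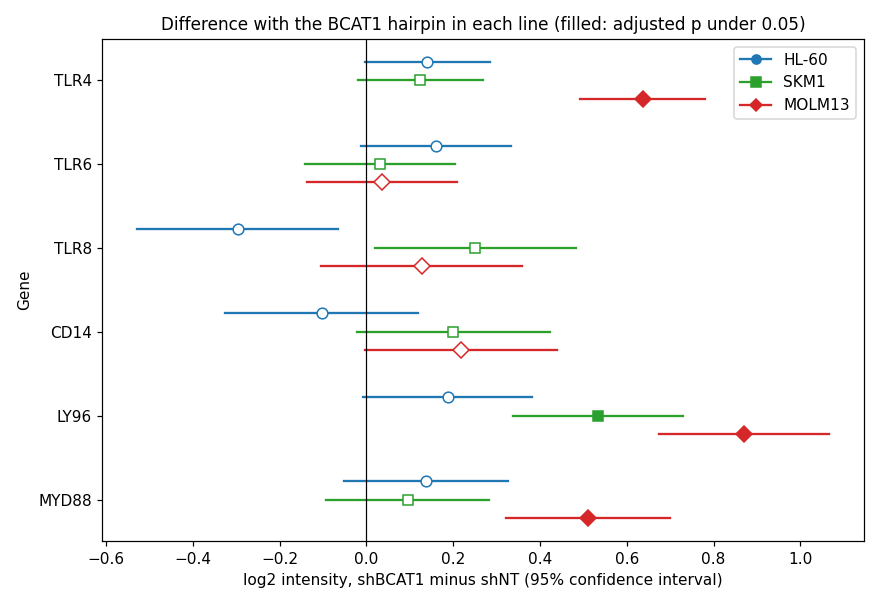
Log2 difference of shBCAT1 minus shNT for the 6 tested genes in each line, with 95% intervals from the limma fit and filled symbols for adjusted p under 0.05. LY96, TLR4 and MYD88 in MOLM13 and LY96 in SKM1 are the 4 differences that passed the test.

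The lines' responses themselves differed for TLR4, LY96, MYD88 and TLR8 by a moderated F test over the 3 knockdown differences (limma adjusted p = 0.000539, 0.0024, 0.0394 and 0.0355). Before adjustment, these 4 of the 6 genes and 29.4% of all tested genes had a p under 0.05 in this F test. In pairs of lines, 2 of 6 genes differed between MOLM13 and HL-60 (14.6% of all tested genes did), 2 between MOLM13 and SKM1 (10.1%) and 1 between SKM1 and HL-60 (6.40%). For TLR4, the MOLM13 difference exceeded that of HL-60 by 0.50 (SE 0.10; limma adjusted p = 0.00103) and that of SKM1 by 0.51 (SE 0.10; limma adjusted p = 0.00102). For LY96, MOLM13 exceeded HL-60 by 0.68 (SE 0.13; limma adjusted p = 0.000918). The LY96 difference was not called between MOLM13 and SKM1 (0.34, 95% interval 0.06 to 0.61 unadjusted; limma adjusted p = 0.127), though it was with array weights (0.43, adjusted p = 0.00644) and without MOLM13 shNT replicate 1 (0.42, adjusted p = 0.0403). Nor was it called between SKM1 and HL-60 (0.35, 95% interval 0.07 to 0.62; limma adjusted p = 0.145). For MYD88, MOLM13 exceeded SKM1 by 0.42 (limma adjusted p = 0.0397) and HL-60 by 0.37 (limma adjusted p = 0.0533, not called). The excess over HL-60 was called in 8 of 26 alternatives, those without HL-60 shBCAT1 replicate 1, HL-60 shNT replicate 2, SKM1 shBCAT1 replicate 1 or MOLM13 shNT replicate 1, and those with quantile normalization, the stricter filter, the mean of all probes and array weights (adjusted p of 0.0123 at the lowest). The MYD88 excess over SKM1 was called in 9 of the 18 fits with 1 array left out, with values of 0.34 to 0.50. It was lost without any SKM1 array other than shBCAT1 replicate 2, and without MOLM13 shBCAT1 replicate 1 or 2 or shNT replicate 2 or 3. It was also lost with quantile normalization, normexp correction and a trended robust prior (limma adjusted p = 0.0508, 0.052 and 0.059). The F test of MYD88 kept its call in 6 of the 18 fits, those without HL-60 shNT replicate 2, any HL-60 shBCAT1 array, SKM1 shBCAT1 replicate 2 or MOLM13 shNT replicate 1, and lost it with normexp correction and the trended robust prior (limma adjusted p = 0.0543 and 0.0591).

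For TLR8, the difference with shBCAT1 had opposite signs in HL-60 and SKM1, with no call in either. It read 85.5, 127 and 90.6 in HL-60 with shNT and 88.5, 71.8 and 83.3 with shBCAT1, and in SKM1 163, 154 and 153 against 181, 182 and 197. The SKM1 arrays were all higher with shBCAT1 and the HL-60 groups overlapped, with means of 101 ± 22.5 and 81.2 ± 8.6 (SD, n = 3 each). The log2 differences were -0.30 in HL-60 (95% interval -0.53 to -0.06; limma adjusted p = 0.0684) and 0.25 in SKM1 (95% interval 0.02 to 0.48; limma adjusted p = 0.189). The difference between these differences was 0.55 (limma adjusted p = 0.038). It was called in 9 of 18 fits with 1 array left out, and lost without any SKM1 array, HL-60 shNT replicate 2 or HL-60 shBCAT1 replicate 2 or 3. With the mean of all TLR8 probes it was 0.26 and not called (limma adjusted p = 0.0939), and neither was the F test (adjusted p = 0.104). The F test of TLR8 was also lost without those 3 HL-60 arrays or without SKM1 shNT replicate 2 or 3 or shBCAT1 replicate 2 or 3. The HL-60 difference itself turned on single arrays. It was -0.12 without the array at 127 (HL-60 shNT replicate 2; limma adjusted p = 0.465), and it passed the test without HL-60 shNT replicate 1 or 3, at -0.41 and -0.36 (adjusted p = 0.016 and 0.0485). In MOLM13 the TLR8 arrays were 84.7, 90.7 and 90.3 against 89.3, 95.0 and 106, a difference of 0.13 (limma adjusted p = 0.505).

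CD14, the co-receptor, read 107, 94.6 and 108 in MOLM13 with shNT and 142, 119 and 103 with shBCAT1. The groups overlapped through the last shBCAT1 array, and the difference was 0.22 (95% interval -0.0034 to 0.44; limma adjusted p = 0.171), and 0.33 (adjusted p = 0.0374) without that array. With array weights it was 0.25 (adjusted p = 0.0494). In SKM1 CD14 read 81.7, 82.2 and 83.5 against 88.4, 95.0 and 101, higher on all shBCAT1 arrays but not called (0.20; limma adjusted p = 0.308). In HL-60 it read 88.8, 104 and 115 against 86.2, 96.7 and 103, with a difference of -0.10 (limma adjusted p = 0.59). The TLR6 group means stayed between 98.5 and 110.7, and its differences were 0.16 (HL-60), 0.03 (SKM1) and 0.04 (MOLM13) (limma adjusted p = 0.212, 0.914 and 0.839).

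The 9 genes had 13 probes in all, and CD14, TLR6 and TLR8 had more than 1. The second CD14 probe gave 72.0 to 95.8 on the 18 arrays, with log2 differences of 0.01, -0.03 and 0.04 in HL-60, SKM1 and MOLM13. The second TLR6 probe read 117, 95.9 and 104 against 129, 119 and 122 in MOLM13 and 90.0, 93.1 and 84.3 against 106, 112 and 93.3 in HL-60. In both lines every shBCAT1 array was higher, with differences of 0.23 and 0.22 that did not pass the test over all probes (limma adjusted p = 0.119 and 0.161). Of the other TLR8 probes, 1 was also highest in SKM1 (114, 102 and 96.3 with shNT, 108, 110 and 109 with shBCAT1, and 75.0 to 91.4 in the other lines). Its SKM1 difference of 0.07 was smaller than the 0.25 of the brightest probe. The other gave 72.8 to 100. With shNT it read 92.2, 87.4 and 92.6 in HL-60, above 83.1, 80.6 and 83.9 in SKM1, the reverse of the brightest probe. In MOLM13 with shNT it read 77.7, 80.1 and 88.9. Its HL-60 arrays were all lower with shBCAT1, at 84.2, 83.1 and 83.7. The HL-60 difference of -0.30 at the brightest TLR8 probe stood at -0.00042 and -0.12 at the 2 other TLR8 probes.

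**Figure D3:**
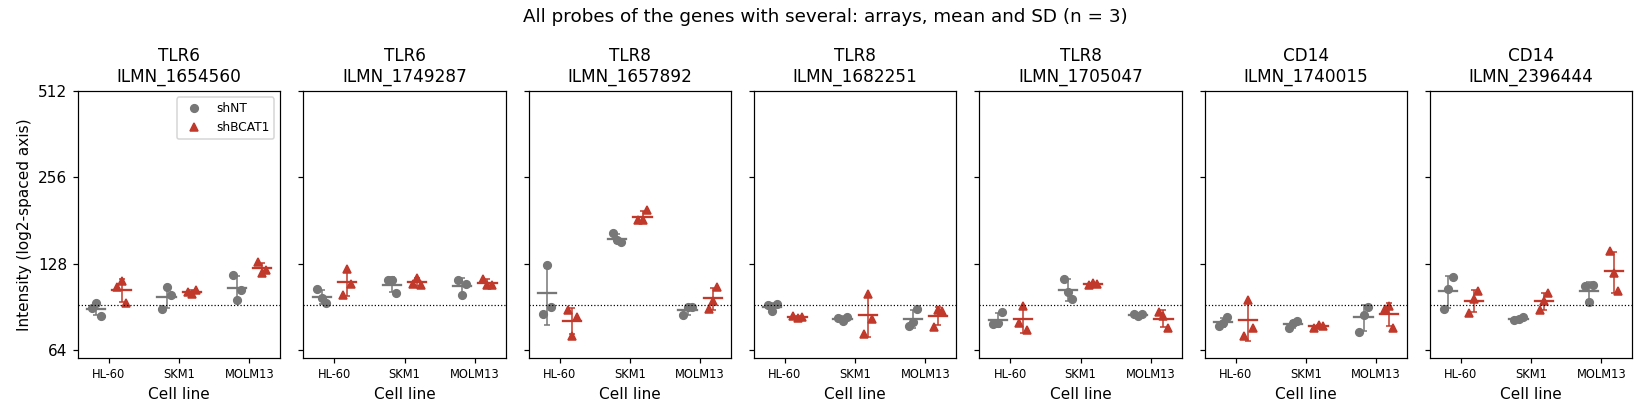
Intensity (log2-spaced axis) at every probe of the 3 genes with several probes (CD14, TLR6, TLR8), by line and hairpin, with points for arrays, bars for group mean and SD (n = 3) and the table median as a dotted line. The TLR8 probe that leads SKM1 at 153 to 197 is followed by a second probe at 96.3 to 114 in that line.

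Markers of monocytes and macrophages were read beside these genes. On the 11 of 12 listed markers present on the array, the summed intensity was 5715 to 6630 with shNT and 9605 to 10188 with shBCAT1 in MOLM13, 18681 to 20145 and 21166 to 22092 in SKM1, and 1244 to 1389 and 1776 to 1936 in HL-60. The sums did not overlap in any line. In SKM1 most of the sum was S100A8 and S100A9, with means of 4839 and 11812 with shNT and 5613 and 12622 with shBCAT1, and neither was called there (log2 differences 0.21 and 0.10; limma adjusted p = 0.361 and 0.782). CSF1R, the receptor of a monocyte growth factor, fell by 1.13 in SKM1 (adjusted p = 4.08e-10). In MOLM13, 7 of the 11 markers rose and none fell, among them S100A8 by 2.15 and CD86 by 1.41 on the log2 scale, and FCN1 and VCAN were at or below the table median with shBCAT1. In HL-60 5 rose and none fell, and in SKM1 4 rose and 2 fell. Of all 15291 tested genes, 1579 rose and 1638 fell in MOLM13, 1530 and 1356 in HL-60, and 714 and 992 in SKM1. Of 7 tested neutrophil markers, 4 rose in MOLM13, 2 rose in HL-60 and 1 fell in SKM1. The part of these markers in the rise of LY96, TLR4 and MYD88 was not tested. Of 5 markers of T and NK cells, 2 to 4 were above the table median in each group. CD3D, part of the T cell receptor complex, fell by 0.80 in MOLM13 (from a mean of 412 to 233; limma adjusted p = 6.29e-06). NKG7 of cytotoxic granules rose by 0.57 in HL-60 (adjusted p = 0.000175) and by 0.31 in MOLM13 (adjusted p = 0.0267), while CD3E was at or below the median in all 6 groups. Of 5 markers of plasmacytoid dendritic cells, 2 to 4 were above it. NRP1 rose in HL-60 and SKM1 by 0.83 and 0.46 (adjusted p = 4.91e-07 and 0.00126), IL3RA fell by 0.39 in MOLM13 (adjusted p = 0.00448), and CLEC4C was at or below the median in all 6 groups. Their part in the members' changes was not tested either.

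The other genes of the pathway were read from 7 lists, 71 of 76 genes tested. With shBCAT1, 20 rose and 3 fell in HL-60, 9 rose and 2 fell in SKM1, and 9 rose and 10 fell in MOLM13, where 18.9%, 11.2% and 21.0% of all tested genes changed. By direction, 1530 of all 15291 tested genes rose and 1356 fell in HL-60, 714 and 992 in SKM1, and 1579 and 1638 in MOLM13.

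Of the accessory proteins and chaperones in MOLM13, 3 of 10 tested rose and 1 fell. CD36, a scavenger receptor that works with Toll-like receptors, went from 153 ± 12.4 to 462 ± 48.8 (SD, n = 3 each), a 3.01-fold rise (limma adjusted p = 2.82e-10). LY86 (MD-1, the partner of CD180 and a relative of LY96) went from 1162 ± 256 to 2929 ± 169, a 2.56-fold rise (adjusted p = 3.83e-09), and CNPY3, a chaperone for several Toll-like receptors, rose 1.70-fold (adjusted p = 0.00111). The CNPY3 groups overlapped, at 694 ± 216 with shNT and 1160 ± 245 with shBCAT1. In SKM1, TREM1, an amplifier of receptor signals, rose by 0.64 (adjusted p = 0.000977) and CD36 by 0.45 (adjusted p = 0.00578), RAB7B by 0.31 (adjusted p = 0.0441), and NRROS, which restrains receptor signalling, fell by 0.46 (adjusted p = 0.015). In HL-60, RAB7B, a GTPase of receptor trafficking, rose by 0.52 (adjusted p = 0.000462) and CD180 by 0.20 (adjusted p = 0.0424). In 13 of the 18 fits with 1 array left out the list's rises in HL-60 numbered 1, and the falls of the list in SKM1 numbered 0 to 2. The median log2 difference of the list was 0.08 (HL-60), -0.03 (SKM1) and 0.04 (MOLM13).

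Among the other receptors, TLR9, an endosomal DNA receptor, rose by 0.44 in HL-60 (limma adjusted p = 0.00188) and fell by 0.28 in MOLM13 (adjusted p = 0.0465), and TLR10 fell by 0.27 in HL-60 (adjusted p = 0.0456). The 2 falls were each lost in 11 of 18 fits with 1 array left out. In SKM1 the differences of TLR3, TLR5, TLR9 and TLR10 lay between -0.05 and 0.12, none of them called. Of the adaptors, TICAM2, which links TLR4 to TRIF, fell by 0.56 in HL-60 (adjusted p = 0.000916). In SKM1 and MOLM13 the differences of the 3 tested adaptors lay between -0.32 and 0.22, none of them called.

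Of 18 kinases and ubiquitin ligases, 4 rose in HL-60 and 1 each in the other lines, and no fall was called. IKBKE, a kinase that activates IRF3 and IRF7, rose by 0.55 in HL-60 and by 0.55 in SKM1 (limma adjusted p = 0.000121 and 0.000237). SYK rose by 0.52 in HL-60 (adjusted p = 0.000101), and MAP3K8, a kinase upstream of ERK, rose by 0.57 in HL-60 and by 0.40 in MOLM13 (adjusted p = 0.00486 and 0.0435), and in 8 of 18 fits with 1 array left out no kinase was called in MOLM13. IRAK1, a kinase that MYD88 recruits, was not called in any line, at 0.04, 0.23 and -0.03 in HL-60, SKM1 and MOLM13.

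Of 13 transcription factors, 7 rose in HL-60, among them IRF7 by 0.84 (limma adjusted p = 6.57e-07) and CEBPB by 0.48 (adjusted p = 0.000573). In SKM1, IRF8 fell by 1.36 (adjusted p = 3.1e-10). In MOLM13, CEBPB rose by 0.58 (adjusted p = 6.39e-05), IRF8 fell by 0.34 (adjusted p = 0.00823) and NFKB2 by 0.36 (adjusted p = 0.00844), for 2 rises and 4 falls. Without MOLM13 shBCAT1 replicate 1, shNT replicate 2 or shNT replicate 3, the falls there numbered 2, 1 and 2. The list's median log2 difference was 0.32 (HL-60), 0.05 (SKM1) and -0.05 (MOLM13).

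Among the inhibitors, CD300A, an inhibitory receptor, rose by 1.01 in HL-60 (limma adjusted p = 6.67e-05) and fell by 1.15 in MOLM13 (adjusted p = 1.17e-05). TNFAIP3 (A20, which removes ubiquitin chains from the pathway) fell by 0.56 in MOLM13 (adjusted p = 0.0027), while TOLLIP rose by 0.36 there (adjusted p = 0.00894). In HL-60, ATF3 fell by 0.46 (adjusted p = 0.0023) and CYLD rose by 0.31 (adjusted p = 0.0109). Of 14 inhibitors tested, 3 rose and 1 fell in HL-60, and 1 rose and 3 fell in MOLM13. The HL-60 rises numbered 1 without HL-60 shBCAT1 replicate 2 and the falls 2 without HL-60 shNT replicate 3, and the MOLM13 rises 0 without MOLM13 shNT replicate 2. In SKM1 their differences lay between -0.30 and 0.20, with no call.

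The output genes rose in SKM1 in 5 of 9 cases, with IL1B at 1.03 (limma adjusted p = 2.51e-08), TNF at 0.97 (adjusted p = 1.18e-05) and PTGS2 at 0.56 (adjusted p = 3.28e-05), and the list's median was 0.56. In HL-60, 3 rose, with TNF at 1.95 (adjusted p = 3.56e-10). In MOLM13, IL1B rose by 1.27 (adjusted p = 9.91e-10) and CCL2 by 2.01 (adjusted p = 2.33e-07), while TNF fell by 0.39 (adjusted p = 0.0368), a fall lost without MOLM13 shBCAT1 replicate 1 or 2.

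**Figure D4:**
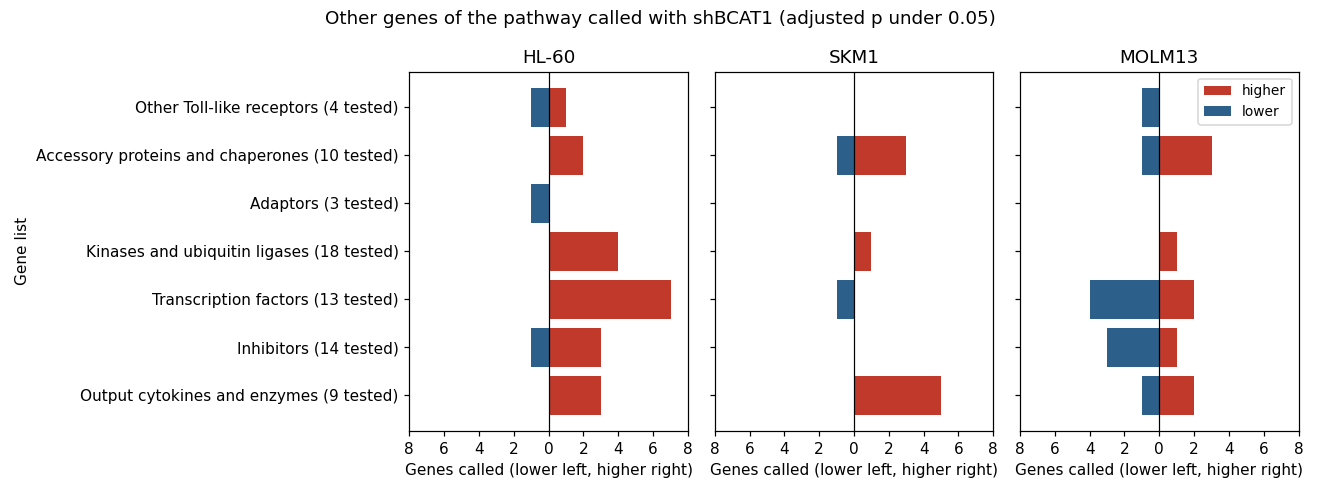
Number of genes called higher (right) and lower (left) with shBCAT1 in each of 7 pathway lists (71 tested genes in all), by line. Over all lists HL-60 has 20 rises and 3 falls, SKM1 9 and 2, and MOLM13 9 and 10.

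Over the 6 group means, the genes whose centred log2 profile lay closest to that of LY96 (range 1.29) were RNF14, AP1S1 and ALDH3A2, at root mean square differences of 0.101, 0.107 and 0.144. Closest to MYD88 (range 1.22) were COMMD10, SERF2 and NDUFAF1, at 0.067, 0.073 and 0.084. Closest to TLR4 (range 0.77) were ZMYM6, TMEM35B and MAEA, at 0.053, 0.056 and 0.058. Between TLR4 and LY96 the measure was 0.236, between TLR4 and MYD88 0.247, and between LY96 and MYD88 0.295.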

How the data were processed

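The deposited values are probe intensities on a linear scale. Arrays had been normalized before deposit, to judge by their medians; the method, the scanner software and the background step are not given in the sources used here. The authors' intensity table held 48107 probes, and the platform annotation gave a single symbol for 30113, several for 8 and no entry for 17986. None of the 15 missing values concerned the 9 genes. Values were taken to log2, and 1 probe per gene, the brightest over all arrays, was fitted. A gene was tested when its brightest group mean exceeded the median of all values, which left 15291 of 20046 genes, and 4755 were too dim. The test was limma (version 3.58.1, R 4.3.3) with 1 mean per group (12 residual and 10.8 prior degrees of freedom), with Benjamini-Hochberg adjustment over all tested genes at 0.05. The fit was also run on simulated data with independent noise on each array, a setting that does not cover any pairing of replicates. Figures were drawn with matplotlib 3.10.9.

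The members, pathway lists and tests were chosen with earlier results of these data known. The text names the 9 genes, BCAT1, up to 3 called genes per pathway list and line with the smallest p, and the 3 genes nearest in profile to each member called with shBCAT1. Outside this rule, SPI1, IRAK1, TLR3, TLR5, RAB7B in SKM1 and all named cell type markers were chosen after their values were seen. Alternatives were a replicate block, leaving out each array, no filter or a stricter filter on dim genes, quantile normalization, normexp background correction, the mean of all probes, a fit for each line alone, array weights, and a trended robust prior. A replicate block within each line was added after seeing the data.

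Replicate numbers were checked for pairing. Deviations from group means correlated between -0.14 and 0.38 for the 9 same-numbered pairs and between -0.30 and 0.14 for the 18 others. In MOLM13 all 3 same-numbered pairs lay above 0.1.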

Additional observations from a re-analysis of the deposited data

Results flagged for a closer look

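The change with shBCAT1 differed between the 3 lines for TLR4, LY96, MYD88 and TLR8 by limma's moderated F test, adjusted over all tested genes. Before adjustment, 29.4% of all tested genes had a p under 0.05 in this F test, and 4 of the 6 tested members did. For TLR4 (adjusted p = 0.000539) the log2 differences were 0.14 (HL-60), 0.12 (SKM1) and 0.64 (MOLM13). For LY96 (adjusted p = 0.0024) they were 0.19, 0.53 and 0.87 in the same order. For MYD88 (adjusted p = 0.0394) they were 0.14, 0.10 and 0.51. For TLR8 (adjusted p = 0.0355) they were -0.30, 0.25 and 0.13, and its HL-60 shNT arrays were 85.5, 127 and 90.6. The calls for MYD88 and TLR8 were lost in 14 and 8 of 26 alternatives, and those for TLR4 and LY96 were kept in all 26.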

How the results depend on the processing

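The rises of TLR4, LY96 and MYD88 in MOLM13 and of LY96 in SKM1 were called in 28 of 28 alternatives each, with log2 differences of 0.61 to 0.73, 0.80 to 0.99, 0.44 to 0.60 and 0.46 to 0.58. The replicate block, also within each line, left the members called at 3 in MOLM13, 1 in SKM1 and 0 in HL-60. With it, the adjusted p in MOLM13 was 7.16e-07 for TLR4, 1.98e-07 for LY96 and 0.000238 for MYD88 by limma. In SKM1 the count was 3 with the arrays of each line alone and 2 with array weights. With 1 array left out, the members called ranged from 0 to 1 in HL-60, from 1 to 2 for MOLM13 against HL-60 with shNT, and from 2 to 4 for the test between lines. The cause was not tested.

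Signs changed only for differences that no test called. With 1 array left out, TLR8 ran from -0.0090 to 0.086 in the mean of the 3 lines and from -0.28 to 0.0080 for MOLM13 against HL-60 with shNT, and CD14 from -0.086 to 0.099 in the latter. TLR6 ran from -0.068 to 0.034 for MOLM13 against SKM1 with shNT, from -0.019 to 0.056 with shBCAT1 in SKM1 and from -0.016 to 0.073 with shBCAT1 in MOLM13. Between the knockdown differences, SKM1 minus HL-60 ran from -0.053 to 0.016 for TLR4 and from -0.11 to 0.038 for MYD88, and MOLM13 minus SKM1 from -0.046 to 0.055 for TLR6 and from -0.10 to 0.13 for CD14. Other settings gave 0.042 for TLR6 in MOLM13 against SKM1 (mean of all probes), -0.048 for CD14 in MOLM13 against HL-60 (array weights), and, with quantile normalization, 0.0060 for TLR4 between SKM1 and HL-60 and -0.0029 for TLR6 between MOLM13 and SKM1.

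The main limits were the small number of arrays, the single hairpin, intensities close to the table median for TLR6, TLR8 and CD14, and the unstated handling of background. Of the pathway list counts, 106 values under the alternatives lay beyond 1.5 times the reported count, and 1070 within it.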
